A study of Mus musculus with 8 samples.

Results

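Interferon-stimulated genes are the genes that cells switch on when they sense interferon, the group of cytokines that warns tissue of viruses and other microbes. A fixed list of 35 such genes was followed in mouse paw tissue by its gene symbols. All 35 symbols were among the 22609 gene symbols in the count files, and all 35 passed the filter on low counts that left 14790 genes. Counts of a member in 1 library ran from 11 to 2213. The members fall by role into 4 transcription factors, 5 sensor genes (4 sensors of nucleic acid and the Trim25 ligase), 13 antiviral effectors, Isg15 with its protease Usp18, 3 guanylate-binding proteins, 3 genes of antigen processing and 5 others.

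The 8 libraries, 4 labelled male and 4 labelled female, came from paw tissue of the inbred mouse strain C57BL/6J. Every library carries the same treatment label, 12 days of prolactin at 0.1 µg. The protocol describes injection into the sole of the paw (intraplantar), one per day. Prolactin (PRL) is a pituitary hormone best known for its part in lactation, and the series title ties its long elevation to sex differences in lasting pain. Arms given PBS or a single injection are named in the protocol and were not analysed here, so there is no untreated background for the values that follow. No age is given in the sources used here. The labels do not say whether each library is 1 animal, and p-values therefore measure the spread between these libraries.

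Type I interferons (alpha and beta) bind the receptor IFNAR1/IFNAR2, whose kinases JAK1 and TYK2 act on STAT proteins. A complex of STAT proteins with IRF9 then binds the interferon-stimulated response element (ISRE), a tandem GAAA motif, in promoters. Interferon gamma acts through its own receptor and a STAT dimer, which binds the gamma-activated site (GAS). In skin, keratinocytes, macrophages, dendritic cells and fibroblasts can all carry out this response.

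The promoters of the members were read from the RefSeq promoter table (build GRCm38.p6), which spans 250 bases before to 50 bases after each start. It held 27 of the 35 members. It had no entry for Oas2, Dhx58, Parp14, Mx2, Usp18, Zbp1, Mx1 and Ifi27l2a. An ISRE-like motif was defined as GAAA, any 2 bases, then GAAA, on either strand, and 14 of the 27 members held it (51.9%). Of all 27025 genes in the table, 3.99% held it in at least 1 window. A GAS-like motif, TTCNNNGAA, reads alike on both strands and stood in 8 of the 27 (29.6%), against 9.55% of all genes. Both motifs were present in 4 members, neither in 9. The stretches that follow are shown because they carry these letters in genes whose levels are described next, with the motifs in capitals and each stretch written 5′ to 3′ along its gene. Isg15 lies at chr4:156200863-156200908 on the minus strand, with 3 overlapping ISRE-like matches. Ifit1 (chr19:34640773-34640825) and Ifit3 (chr19:34583361-34583428), both on the plus strand, hold 2 matches each. Oas3 (chr5:120777713-120777746) and Rsad2 (chr12:26456551-26456584) lie on the minus strand. Stat2 (chr10:128270264-128270297), Gbp2 (chr3:142620592-142620625), Gbp7 (chr3:142530218-142530304) and Irf1 (chr11:53769912-53769944) lie on the plus strand. Gbp7 holds 2 GAS-like matches followed by an ISRE-like one, and Irf1 a GAS-like match alone.
Isg15: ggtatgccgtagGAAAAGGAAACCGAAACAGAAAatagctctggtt
Ifit1: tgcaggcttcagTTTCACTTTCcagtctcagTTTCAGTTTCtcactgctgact
Ifit3: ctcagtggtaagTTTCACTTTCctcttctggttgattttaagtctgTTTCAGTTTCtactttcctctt
Oas3: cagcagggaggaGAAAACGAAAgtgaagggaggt
Rsad2: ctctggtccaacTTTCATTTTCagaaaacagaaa
Stat2: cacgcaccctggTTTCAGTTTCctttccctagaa
Gbp2: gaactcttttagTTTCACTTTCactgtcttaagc
Gbp7: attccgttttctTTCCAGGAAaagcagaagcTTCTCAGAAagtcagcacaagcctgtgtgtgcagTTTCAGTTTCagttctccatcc
Irf1: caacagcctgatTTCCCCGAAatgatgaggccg

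In all 9 stretches the letters lie before the start of the gene. The Isg15 matches span bases -78 to -57 relative to the start. The Ifit1 matches begin at -104 and -85, those of Ifit3 at -156 and -122. The Irf1 match spans -90 to -82. In Bst2 a GAS-like match and an ISRE-like match overlap. A match describes the letters of the window and says nothing of whether a factor bound there in the paw. Psmb9 and Tap1 are transcribed away from each other from starts 225 bases apart, their windows share 275 bases, and neither motif was found there.

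Gene counts summed to between 16753528 and 24993744 per library, and 18.0 to 21.1% of uniquely placed reads fell in no annotated gene. Over all genes edgeR called 6 higher in females and 8 lower. By Xist and 4 Y-linked genes, 8 of 8 libraries matched their labelled sex. Female replicate 4 was the deepest library, and both libraries numbered 4 had the lowest share of reads in no feature of their sex (18.0% each, against 18.3 to 18.8% in the other males and 20.4 to 21.1% in the other females). The part of depth and of this share in the levels described next was not tested.

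Across the 8 libraries the members shared 1 order at the top. Male replicate 4 and female replicate 4 were the highest pair for 35 of 35 members, an arrangement found in 4.63% of all tested genes. Female replicate 4 was highest for 26 members and for 19.7% of all tested genes. Male replicate 4 was highest for the other 9 members, against 9.45% of all tested genes. These 9 were Isg15, Irf7, Irf9, Oas2, Oas3, Oasl1, Oasl2, Usp18 and Zbp1. At the low end, female replicate 3 was lowest for 28 members, while 21.1% of all tested genes had their lowest value there. The exceptions were Irf9, Mx2, Stat2, Tap1 and Eif2ak2, lowest in male replicate 2, and Irf1 and Trim25, lowest in female replicate 2. Among males, replicate 3 ranked second for 30 of the 35, against 33.2% of all tested genes. The highest pair was the same for 35 of 35 members with DESeq2 or upper-quartile size factors and with CPM by total count alone. This order was noticed in these same libraries and carries no test.

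Summed over the 35 genes, CPM (counts per gene scaled to library size, with TMM factors) came to 511, 497, 625 and 1116 in male replicates 1 to 4. They came to 580, 569, 376 and 1213 in female replicates 1 to 4. The sums of the libraries numbered 4 thus stand apart from the rest in both sexes. On the log2 scale the median member lay 0.95 above its mean over the 8 libraries in male replicate 4 and 1.26 above it in female replicate 4. In female replicate 3 the median member stood at -1.28 relative to its mean. The median over all tested genes stayed between -0.02 and 0.03 in every library. Library values in the following paragraphs are CPM in the order of replicates 1 to 4. They are not corrected for gene length and are compared between libraries only.

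**Figure D1:**
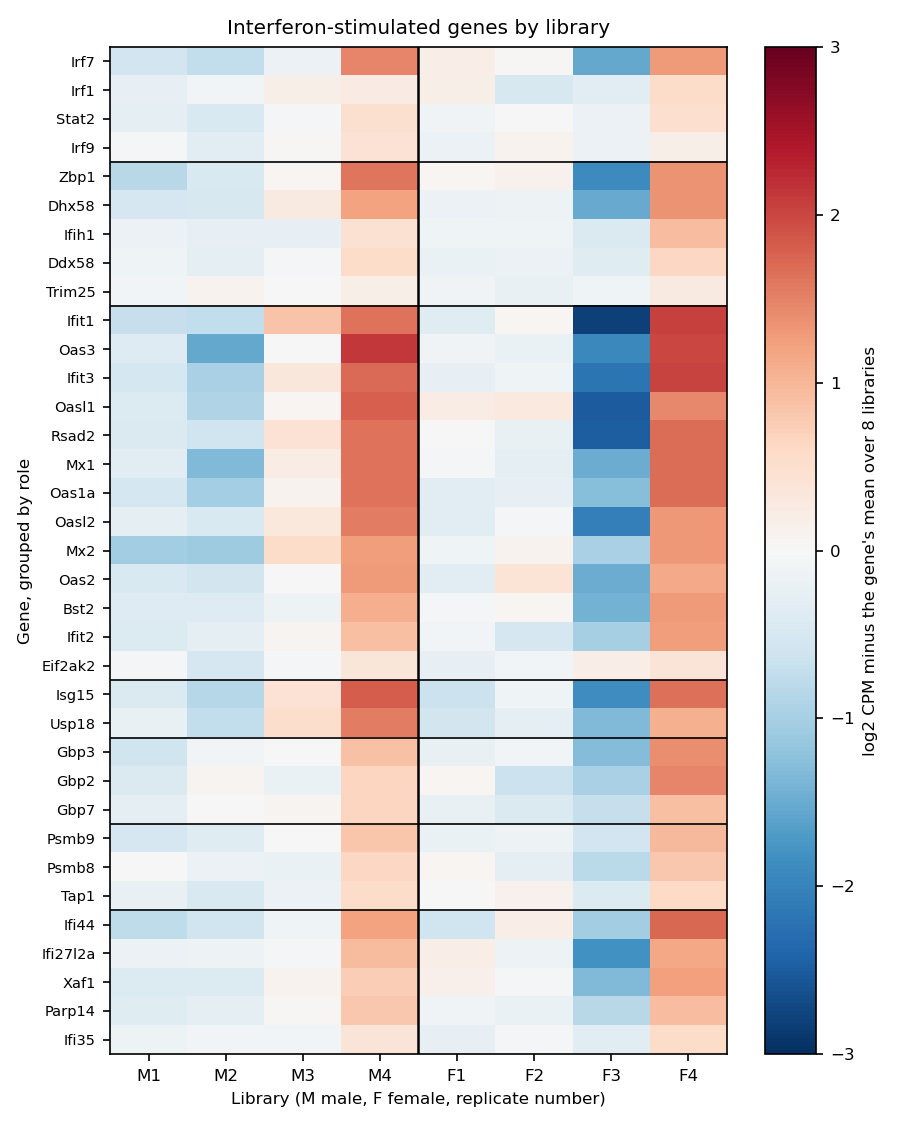
Heat map of the 35 genes (rows, grouped by role and ordered by spread) in the 8 libraries (columns, M male, F female), coloured by log2 CPM minus the gene's mean over the 8 libraries. Columns M4 and F4 are the 2 highest in all 35 rows, and F3 is the lowest in 28 rows.

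The transcription factors that carry the interferon signal had small to moderate differences between libraries, apart from Irf7. Stat2, a STAT protein of the type I complex, stood at 29.6, 26.0, 34.8 and 49.8 CPM in males and 33.3, 35.9, 31.6 and 50.4 CPM in females. Irf9, the DNA-binding part of that complex, stood at 34.6, 27.7, 36.1 and 47.7 CPM in males and 31.1, 37.7, 31.03 and 40.0 CPM in females. For Irf9 the gap between the libraries numbered 4 and the next highest was narrow, 37.7 CPM in female replicate 2 against 40.0 CPM in female replicate 4. Irf1, a first-wave factor of the interferon gamma response and the one stretch printed with GAS-like letters alone, reached 16.6, 18.7, 22.2 and 23.6 CPM in males and 22.4, 14.2, 15.5 and 29.04 CPM in females. Irf7, the factor that amplifies type I interferon production, gave 18.8, 16.8, 24.8 and 77.2 CPM in males and 32.1, 28.7, 9.62 and 68.3 CPM in females. Its level in male replicate 4 was 4.10 times the median of the other 3 males, while the ratios of Stat2, Irf9 and Irf1 there were 1.68, 1.38 and 1.26. In female replicate 4 the ratio of Irf7 was 2.38 and in female replicate 3 it was 0.300.

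Sensors of foreign nucleic acid showed the same order. Ifih1 (MDA5, a helicase that detects long double-stranded RNA) stood at 16.5, 15.6, 15.7 and 25.4 CPM in males and 17.0, 17.0, 13.7 and 35.4 CPM in females. In each sex 3 libraries were close together and the library numbered 4 lay above them. Ddx58 (RIG-I, which detects RNA with a free 5′ triphosphate) had ratios of 1.60 and 1.77 in male and female replicate 4. Dhx58 (LGP2, a regulator of both helicases) had ratios of 3.29 and 2.88. Zbp1, a sensor of Z-form nucleic acid, had ratios of 4.23 and 2.46. Trim25, the ubiquitin ligase that acts on RIG-I, was the most even member, at 58.7, 66.7, 62.0 and 70.0 CPM in males and 58.0, 53.6, 56.5 and 75.1 CPM in females. Its values in the libraries numbered 4 were the highest, by ratios of only 1.13 and 1.33.

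Antiviral effectors differed widely between libraries, with a median ratio of 4.23 in male replicate 4, 3.42 in female replicate 4 and 0.266 in female replicate 3 over 13 genes. Ifit1, which binds RNA lacking the host cap methylation and holds the tandem letters at 2 places in the stretch printed above, gave 5.62, 5.51, 16.6 and 28.8 CPM in males and 7.13, 9.56, 1.24 and 38.4 CPM in females. The lowest and the highest of the 8 libraries were thus both female. Ifit3, its partner, gave 6.52, 4.71, 11.9 and 30.7 CPM in males and 7.89, 8.64, 1.99 and 38.4 CPM in females. Oas3, which makes the 2-5A signal that turns on RNase L, gave 2.64, 1.12, 3.49 and 15.4 CPM in males and 3.18, 3.002, 0.839 and 14.3 CPM in females. Male replicates 1 to 3 and female replicates 1 to 3 were all below 4 CPM for Oas3, and both libraries numbered 4 were above 14 CPM. Oasl1, a related protein that restrains Irf7 translation, gave 2.39, 1.66, 3.33 and 11.3 CPM in males and 3.77, 3.97, 0.486 and 8.83 CPM in females. Oasl2 gave 12.3, 10.7, 18.6 and 42.9 CPM in males and 11.8, 14.3, 3.49 and 36.8 CPM in females. Rsad2 (viperin, an enzyme that makes a chain-terminating nucleotide) gave 6.02, 5.40, 11.2 and 25.5 CPM in males and 8.13, 7.07, 1.41 and 26.3 CPM in females. In each of these genes female replicate 3 was the lowest library.

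The other effectors covered a similar range. Mx1 and Mx2 encode dynamin-like GTPases, and Mx1 is defective in most inbred mouse strains, C57BL/6J among them. Mx1 had ratios of 3.99 and 3.93 in male and female replicate 4, and Mx2 had ratios of 5.25 and 2.75. Bst2 (tetherin, which holds budding virus at the cell surface) had ratios of 2.79 and 2.54. Oas1a and Oas2 had ratios of 4.60 and 3.33 in male replicate 4. Their ratios in female replicate 4 were 4.13 and 2.73. Ifit2 had ratios of 2.25 and 3.42, below those of Ifit1 and Ifit3. Eif2ak2 (PKR, the kinase that halts translation on double-stranded RNA) was the flattest effector, at 26.3, 18.8, 25.9 and 34.8 CPM in males and 22.6, 25.3, 30.9 and 35.02 CPM in females. It was also the member with the highest ratio in female replicate 3, 1.22. Reads shared by near-identical copies within the Ifit, Oas and Gbp families may be missing from the counts, which makes the values of these genes uncertain; how far was not measured.

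**Figure D2:**
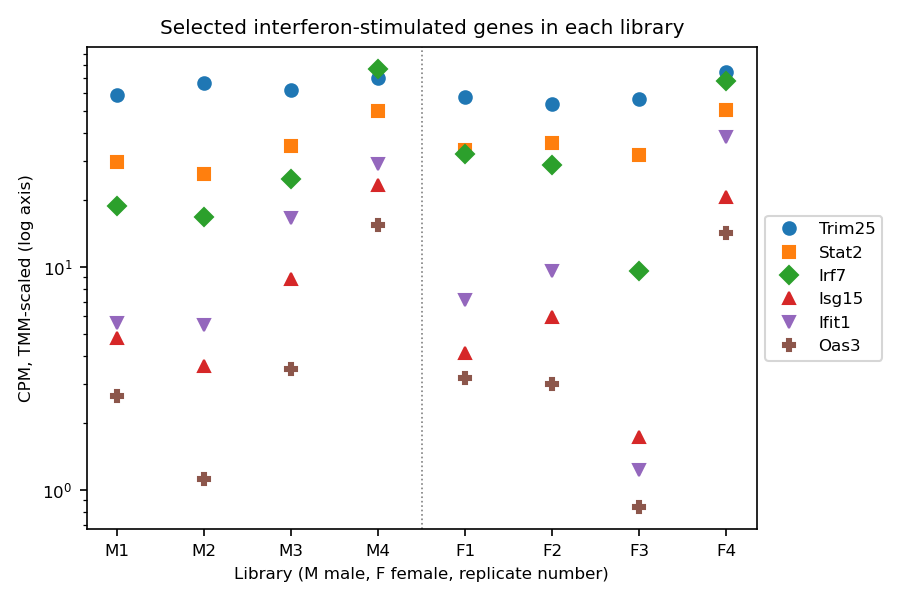
CPM (log axis) of 6 members in each library, males to the left of the dotted line and females to the right, 1 point per library. Trim25 stays between 53.6 and 75.1 CPM, while Ifit1 runs from 1.24 CPM in F3 to 38.4 CPM in F4.

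Isg15 encodes a ubiquitin-like tag that is joined to other proteins, and Usp18 removes the tag and damps the receptor. Isg15 stood at 4.83, 3.58, 8.84 and 23.2 CPM in males and 4.12, 5.96, 1.72 and 20.6 CPM in females. Usp18 stood at 4.88, 3.42, 8.29 and 16.8 CPM in males and 3.89, 4.67, 2.25 and 12.2 CPM in females. Both genes had their highest value in male replicate 4 and their lowest in female replicate 3. The guanylate-binding proteins Gbp2, Gbp3 and Gbp7, which attack the vacuoles of intracellular microbes, had their highest value in female replicate 4. Gbp2 stood at 13.9, 20, 16.5 and 29.6 CPM in males and 19.9, 12.01, 9.53 and 52.6 CPM in females, with ratios of 1.79 in male replicate 4 and 4.38 in female replicate 4. Over the 3 Gbp genes the median ratio was 1.79 in male replicate 4 and 3.11 in female replicate 4.

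Antigen processing was represented by 2 subunits of the immunoproteasome, Psmb8 and Psmb9, and by the peptide transporter Tap1. Tap1 stood at 29.8, 25.1, 30.7 and 50.3 CPM in males and 34.0, 37.7, 26.1 and 52.3 CPM in females. The ratios of Psmb8 were 1.74 and 2.12 in male and female replicate 4, and those of Psmb9 were 2.31 and 2.28. These 3 genes lie next to each other in the RefSeq annotation, as do Ifit2 with Ifit3, Gbp7 with Gbp3, Oasl2 with Oasl1 and Oas2 with Oas3. Of the remaining members, Ifi44 stood at 1.19, 1.34, 1.91 and 4.95 CPM in males and 1.36, 2.40, 0.971 and 7.06 CPM in females. Ifi27l2a, Ifi35, Xaf1 and Parp14 had ratios between 1.39 and 2.23 in male replicate 4, where that of Ifi44 was 3.70. All 5 genes were lowest among females in replicate 3.

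Set against all genes, both ratios were at least 1.5 in 30 of the 35 members and in 1.74% of tested genes. Both were at least 2 in 22 of the 35 and in 0.663% of tested genes. Over the members the median ratio was 2.31 in male replicate 4, 2.52 in female replicate 4 and 0.451 in female replicate 3. Over all tested genes the same medians were 0.991, 1.01 and 0.980. Of the 10 members with the largest ratio in male replicate 4, 6 were also among the 10 largest in female replicate 4. The 10 smallest shared 9. The 14 members with the ISRE-like letters had median ratios of 2.36 and 3.42 in male and female replicate 4, and the 13 without had 2.23 and 2.28. The genes without include Oasl1, Oasl2 and Irf7, with ratios of 4.72, 3.47 and 4.10 in male replicate 4, and those with the letters include Stat2 and Eif2ak2 with 1.68 and 1.34.

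**Figure D3:**
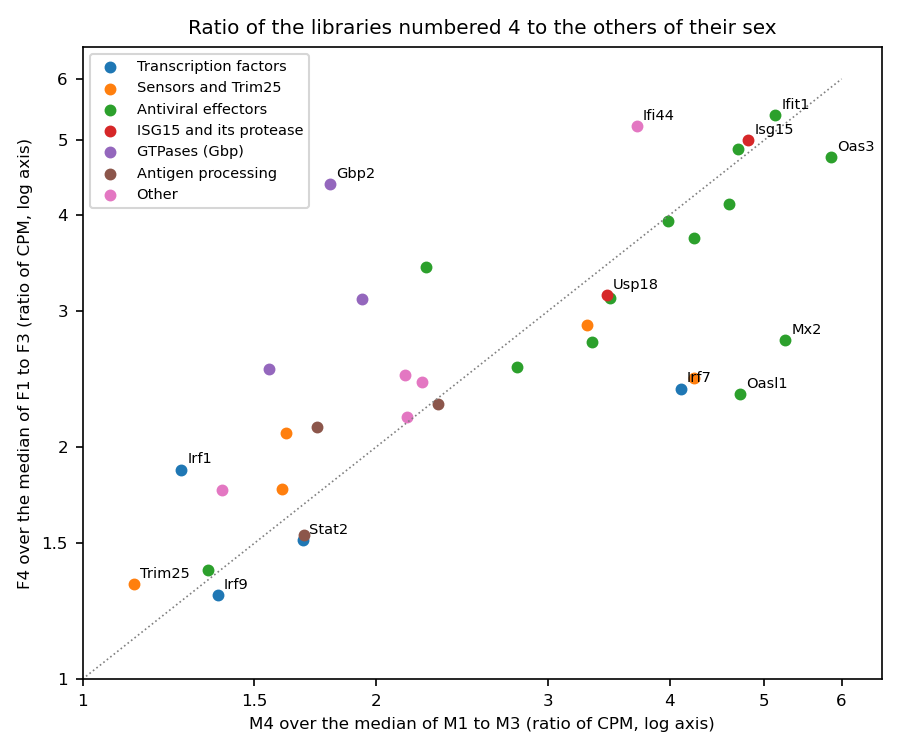
Ratio of M4 to the median of M1 to M3 (x) and of F4 to the median of F1 to F3 (y) for each of the 35 genes, both on log axes and coloured by role, with equality as the dotted line. All points exceed 1 on both axes, from Trim25 (1.13 and 1.33) to Ifit1 (5.13 and 5.39), and Gbp2 lies far above the line.

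The spread among libraries of the same sex was measured as the pooled standard deviation (SD) of log2 CPM. Its median was 0.93 over the members and 0.22 over all tested genes. Member values ran from 0.17 for Trim25 to 1.64 for Ifit1. Among 9108 genes in the same range of mean CPM (2.65 to 62.6) the median was 0.21. Of the 35 members, 34 were above that median and 24 above the 90th percentile of those genes (0.58). Without both libraries numbered 4 the median over the members was 0.57 and that over all genes 0.21.

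Genes upstream of the members were looked up as fixed lists. The interferons on the list were almost without counted reads. Of 11 interferon symbols listed, 9 were in the files, and other interferon genes were not looked up. In all libraries 7 of the 9 had 0 counts (Ifna1, Ifna2, Ifnb1, Ifnk, Ifne, Il28a and Il28b). At 3 counts over the 8 libraries this allows up to 0.0182 CPM of uniquely placed reads. Reads shared by near-identical interferon genes may be missing from the counts, and that limit does not cover them. Ifna4 had 1 count, in female replicate 4. Ifng had 0, 0, 2 and 1 counts in males and 2, 0, 3 and 3 counts in females. At this depth no difference between the libraries could be detected in the transcripts of these listed interferons.

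None of the 6 receptor genes tested had the libraries numbered 4 as its highest pair. Over all tested genes 4.63% had it, so its absence in so few genes is near that share. Ifnar1, a chain of the type I receptor, stood at 68.9, 60.5, 68.7 and 64.0 CPM in males and 71.5, 55.1, 53.8 and 86.5 CPM in females. Ifngr1, a chain of the gamma receptor, stood at 82.2, 86.9, 87.4 and 77.5 CPM in males and 98.4, 61.7, 66.3 and 122 CPM in females. Both chains were highest in female replicate 4, while male replicate 4 was inside the range of the other males for Ifnar1 and below them for Ifngr1. Ifnar2 stood at 25.7, 21.0, 27.3 and 28.7 CPM in males and 29.4, 21.8, 19.3 and 43.4 CPM in females. Ifngr2 stood at 46.3, 39.9, 43.7 and 45.5 CPM in males and 49.5, 38.6, 39.7 and 52.9 CPM in females. Il10rb, a chain shared by interferon lambda and interleukin receptors, stood at 40.4, 43.4, 43.6 and 43.4 CPM in males and 46.2, 28.3, 29.2 and 59.0 CPM in females. All 3 were highest in female replicate 4, and male replicate 4 was the highest male only for Ifnar2. Il28ra, the lambda-specific chain, differed from these at 20.7, 13.4, 17.2 and 19.3 CPM in males and 17.6, 22.3, 27.7 and 15.1 CPM in females, with female replicate 4 the lowest female. The median ratio of the 6 was 1.02 in male replicate 4 and 1.71 in female replicate 4. Of 16 signalling genes tested, 5 had that highest pair, with median ratios of 1.08 and 1.16. Of 7 negative regulators, Adar and Samhd1 had it, and the medians were 1.19 and 1.21.

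Genes further downstream had the same order at the top. In a list of 37 other interferon-induced genes, 32 had the libraries numbered 4 as the highest pair, and the exceptions were Gbp4, Ifitm1, Ifitm2, Oas1c and Ifi27l1. The median ratios were 1.72 and 2.41. The chemokine Cxcl10, which draws T cells and NK cells, stood at 4.13, 1.82, 3.55 and 8.67 CPM in males and 0.825, 1.71, 0.662 and 9.72 CPM in females. Its ratio was 2.45 in male replicate 4 and 11.8 in female replicate 4. Cxcl9, a chemokine of the same receptor, had ratios of 3.21 and 13.3 at low levels. It stood at 1.64, 1.28, 1.04 and 4.11 CPM in males and 0.471, 1.11, 0.265 and 6.25 CPM in females. Of 10 genes of class I antigen presentation, all but Psme2 had the highest pair, with median ratios of 1.32 and 1.497.

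Whole paw holds skin, muscle and immune cells, and in such bulk tissue fewer cells of a type and less RNA per cell cannot be told apart. The 8 macrophage markers found in the files summed to 1330 to 1593 CPM in males and 745 to 2536 CPM in females. Of all tested genes, 24.7% were highest among males in male replicate 4 and 27.4% highest among females in female replicate 4. The counts of higher marker genes from here on stand beside these shares. All 8 macrophage markers were higher in female replicate 4 than in the other females (ratio of sums 3.12). In male replicate 4, 2 of 8 were higher than in the other males (ratio 0.845), which is near the share over all genes. The sum in female replicate 3 was 0.424 times the median of the other females. Pan-leukocyte markers, 4 of 4 higher in each library numbered 4, had ratios of 1.21 and 2.21. NK cell markers were 7 of 7 higher in each, with ratios of 2.41 and 3.56, at sums of only 0.909 to 3.48 CPM in males and 0.662 to 4.28 CPM in females. T cell markers were higher for 3 of 7 genes in male replicate 4 and 6 of 7 in female replicate 4, with ratios of 1.12 and 1.85. The part of these cells in the members' order was not tested.

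Langerhans and dendritic cell markers summed to 981 to 1472 CPM in males and 1051 to 1811 CPM in females, with the highest sums in the libraries numbered 4 (ratios 1.24 and 1.69) and 3 of 6 and 5 of 6 genes higher there. Of 6 neutrophil markers, Ngp was at 0 in all libraries. The sum of the 6 ran from 15.9 to 72.3 CPM in males and from 20.4 to 37.0 CPM in females, with ratios of 2.005 and 0.856, and 1 gene of 6 was higher in each library numbered 4. Plasmacytoid dendritic cells are known as heavy producers of type I interferon, and their markers had 0 of 6 genes higher in male replicate 4 and 2 of 6 in female replicate 4. Their sums were 1925 to 2440 CPM in males and 1841 to 2730 CPM in females, of which Ly6d made up 97.2%. The sum had ratios of 0.973 in male replicate 4, 0.743 in female replicate 4 and 1.35 in female replicate 3. Those of the keratinocyte markers were 1.15, 0.672 and 1.46, and the cell source of Ly6d was not tested. The lowest ratios among the 5 tested markers were 0.153 in male replicate 4 and 0.0072 in female replicate 3. Those lie near the fast muscle medians of 0.143 and 0.0037. These marker counts therefore cannot be read as those of plasmacytoid dendritic cells alone. Siglech, the defining marker of these cells, stood at 1.09, 1.71, 2.13 and 1.08 CPM in males and 1.24, 0.647, 1.24 and 1.66 CPM in females. Male replicates 1 and 4 had 22 counts each, the fewest among males, and female replicate 4 was the highest female. Fibroblast markers were higher for 0 of 5 genes in male replicate 4 and 5 of 5 in female replicate 4, with ratios of 0.790 and 1.99. Endothelial markers were higher for 0 of 4 and 4 of 4 genes, with ratios of 0.847 and 1.73. B cell markers were higher for 1 of 4 and 3 of 4, at sums of 1.64 to 2.15 CPM in males and 1.62 to 3.43 CPM in females. Keratinocyte markers had ratios of 1.15 and 0.672. Fast muscle transcripts varied most, from 812 to 24236 CPM in males and 26.0 to 18774 CPM in females. Male replicate 4 was the lowest male for muscle and female replicate 3 the lowest female, and these libraries lie at opposite ends for the members. The part of tissue make-up in the members' levels was not tested.

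**Figure D4:**
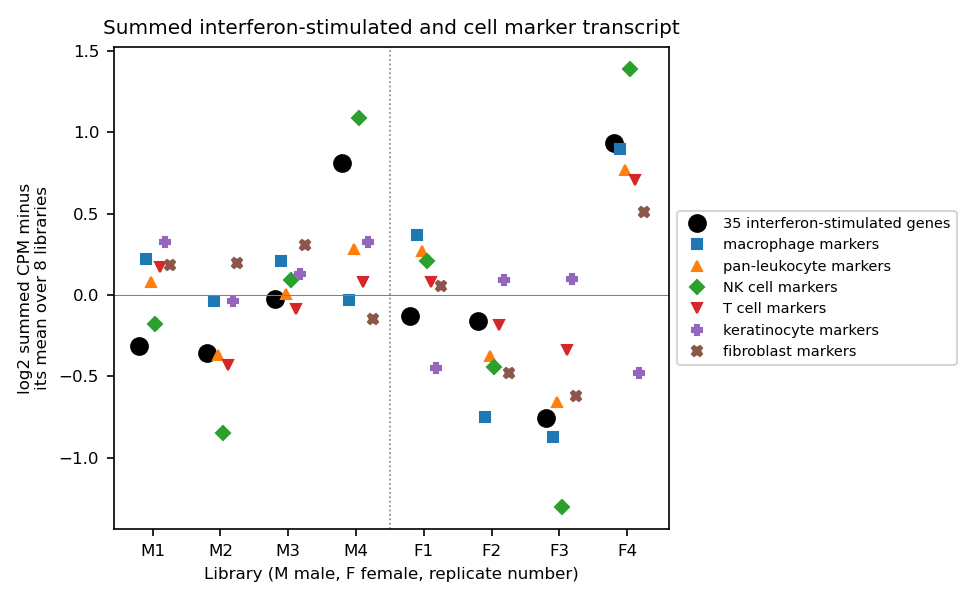
Summed CPM of the 35 genes and of 6 marker lists in each library (x, M male, F female), as log2 minus the mean over the 8 libraries (y), 1 point per list and library. In F4 the members lie high together with macrophage, leukocyte, NK cell, T cell and fibroblast markers. In M4 they lie high together with NK cell, leukocyte and keratinocyte markers (2.41, 1.21 and 1.15 times the median of the other males). The macrophage sum in M4 is 0.845 times that median. The leukocyte sum is highest among males in M4 (322 CPM) and among females in F4 (451 CPM). The part of these cells in the members' levels was not tested.

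Females were compared with males in edgeR, and no member passed. In edgeR's quasi-likelihood test with Benjamini-Hochberg adjustment over all 14790 genes, 0 of 35 members were called at an adjusted p under 0.05, against 0.0947% of all genes. At an unadjusted p under 0.05 there were again 0 of 35, against 6.53% of all genes. The ranges of the male and female libraries overlapped in every member, while they did not overlap in 4.73% of all genes. For the members this follows from the library order described above and is no separate result on sex. With a male and a female library as the highest pair, the ranges of the sexes cannot separate. DESeq2 and limma-voom also called 0 members, with 0 at an unadjusted p under 0.05 in each. Of the 35 log2 fold changes (female over male), 15 were above 0 and 20 below, with a median of -0.02 over the members and 0.01 over all tested genes.

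The standard errors (SE) were wide. Their median was 0.57 over the members and 0.15 over all tested genes, and no member's fold change was larger than its SE. The lowest fold change was that of Usp18, -0.53 (SE 0.63, adjusted p = 0.999 in edgeR), with the highest male and the highest female library at 16.8 and 12.2 CPM. The highest was that of Ifi44, 0.34 (SE 0.71). Ifit1, the member with the largest spread, had -0.0032 (SE 0.98), and Oas3 had -0.09 (SE 1.002). Isg15 had -0.31 (SE 0.85), Irf7 0.01 (SE 0.69) and Rsad2 -0.16 (SE 0.84). The most precise was Trim25, -0.08 (SE 0.12), followed among the named genes by Irf9 with -0.06 (SE 0.17). Fold changes of Stat2, Tap1, Ifih1 and Eif2ak2 were 0.11, 0.14, 0.18 and 0.10. A missed threshold at such errors does not show that the sexes have equal levels.

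The direction of the comparison rested on single libraries. Without male replicate 4, 34 of the 35 fold changes were above 0, from -0.04 to 1.14. Without female replicate 4, 0 of 35 were above 0, from -1.38 to -0.02. In that fit 2 members had an unadjusted p under 0.05, namely Gbp7 at -0.61 (edgeR adjusted p = 0.596) and Trim25 at -0.21 (edgeR adjusted p = 0.627). The share of all genes in that fit was not measured, and with all 8 libraries it was 6.53%. No other fit had such a member, so this count is not read as a result about the members. Without female replicate 3, 31 were above 0. With both libraries numbered 4 left out, 10 of 35 were above 0, from -0.63 to 0.22, and the smallest edgeR adjusted p was 0.892. No member was called in any of these fits.

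The rest of the pathway was compared between the sexes in the same fit, and none of it was called. This holds for 0 of 6 receptors (5 above 0), 0 of 16 signalling genes (10 above 0), 0 of 7 negative regulators (5 above 0), 0 of 37 other interferon-induced genes (15 above 0) and 0 of 10 class I genes (5 above 0). At an unadjusted p under 0.05 there were 3 of these 76 genes (3.95%), a share below the 6.53% of all tested genes, and all 3 were signalling genes. Mavs, the adaptor of RIG-I and MDA5 on mitochondria, was at -0.31 on the log2 scale (SE 0.08; edgeR adjusted p = 0.509). Tbk1, the kinase that acts on IRF3, was at 0.20 (SE 0.07, edgeR adjusted p = 0.643). Jak2, a kinase of the interferon gamma and prolactin receptors, was at 0.23 (SE 0.09, edgeR adjusted p = 0.718). Their SEs were small next to those of the members. The smallest p among the negative regulators was that of Adar, the RNA editing enzyme, at 0.14 (SE 0.14). Among the other interferon-induced genes it was that of Ly6e at -0.23 (SE 0.18), and among the class I genes that of Tap2, the partner of Tap1, at 0.18 (SE 0.17).

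**Figure D5:**
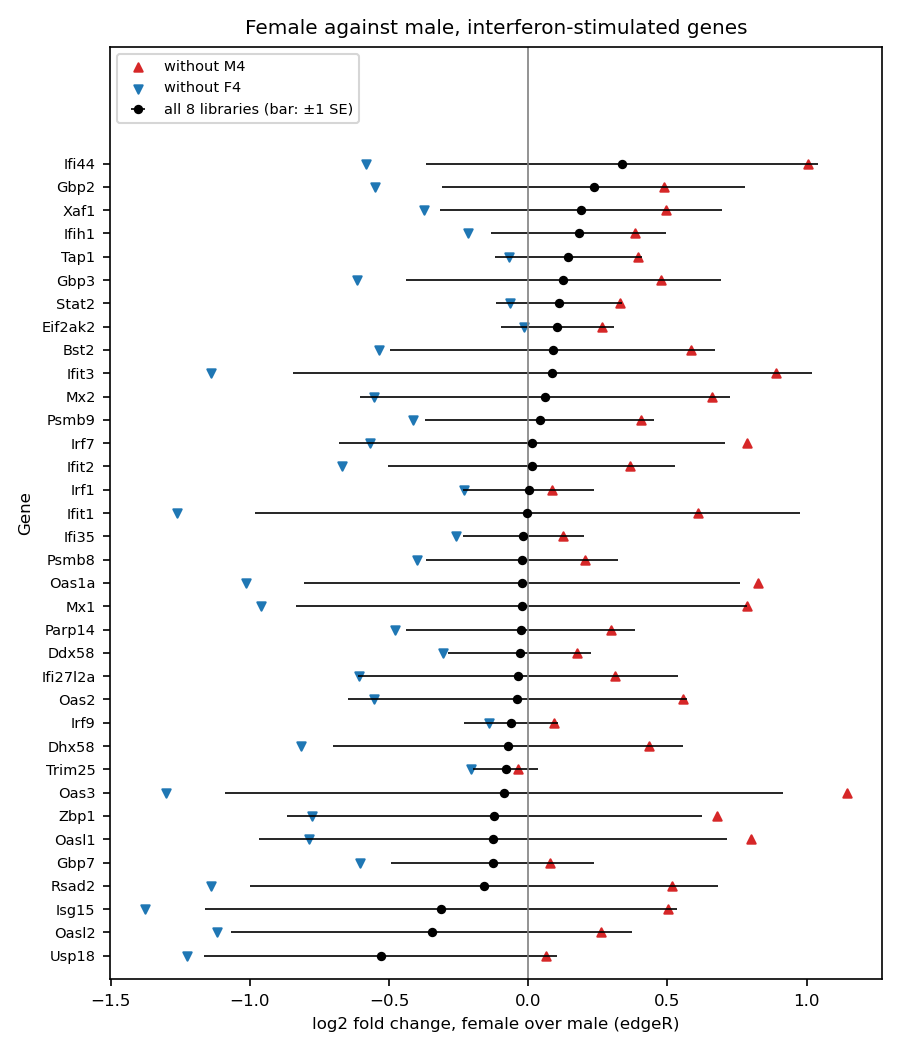
Log2 fold change of females over males from edgeR for each of the 35 genes, with all 8 libraries (black, bars ±1 SE), without M4 (red) and without F4 (blue). Each black bar reaches 0, red points lie above 0 for 34 genes, and blue points lie below 0 for all 35.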

How the data were processed

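RNA from paw tissue of 4 male and 4 female libraries was measured by RNA sequencing. Per the labels' protocols, a stranded poly(A) kit with dUTP marking took up about 500 ng RNA, and single-end reads of 50 bp were made. Per the submitters' processing notes, bcl2fastq, TopHat2, HTSeq and the build mm9 were used. Tool versions, the gene annotation and whether strand was used in counting are not given. In their files the authors deposited whole-number read counts per gene symbol, 1 file per library, with no normalization. Summary lines that name no gene stayed out of library sizes. Alignments that were not unique made up 45.2 to 48.7% of all lines together.

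Counts were analysed in R 4.3.3 with edgeR 4.0.16. Genes were kept by filterByExpr (14790 of 22609), scaled by TMM and tested with the robust quasi-likelihood test with sex as the sole term, with Benjamini-Hochberg adjustment and calls at 0.05. The SE of a log2 fold change is its size over the square root of F. Log2 CPM used a prior count of 2. Ratios divide a library's CPM by the median of the other 3 of its sex. Every pair of libraries of 1 sex differed beyond sampling noise (chi-square per degree of freedom of at least 13.2). Over all genes same-numbered libraries did not deviate together (the members of the libraries numbered 4 did), and the labels give the numbers no meaning, so numbers were not used as pairs. Alternatives were DESeq2 1.42.0, limma-voom (limma 3.58.1), other size factors and filters, a replicate block, a muscle covariate and leaving out libraries. The scripts were tested on simulated data.

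The members and lists were chosen with earlier results of these data known. A value in every library is given for Stat2, Irf9, Irf7, Irf1, Isg15 and Usp18, the 5 members of smallest p in each direction, the 5 of largest and the 2 of smallest spread (17 in all), and the detected ligands and receptors, with up to 3 genes of smallest p named per other list. Gbp2, Cxcl9, Cxcl10, Siglech and the genes of the closing part were chosen after their values were seen. Promoters come from RefSeq (GRCm38.p6). They were matched by symbol and share no coordinates with the counts.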

Additional observations from a re-analysis of the deposited data

Results flagged for a closer look

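Within each sex the highest and the lowest of the 4 libraries were compared with the rest for all 35 members, 70 groups in all, of which chance alone would mark about 1 in 20. A single library lay far from the other 3 in 4 groups (5.71%), against 4.55% of groups over all tested genes. The share of groups marked for any library is thus near the background. It was each time male replicate 4 on the high side. That kind of mark was found in 4 of 35 members and in 58 of the 14790 tested genes (0.392%), so it was more frequent among the members. It repeats the library order described above and carries no test. Ifi27l2a stood at 6.20 log2 CPM there and at 5.09 to 5.23 in the other males. Ifi35 stood at 4.86 against 4.31 to 4.40. Bst2 stood at 5.53 against 4.06 to 4.29. Ifih1 stood at 4.67 against 3.97 to 4.05. No female library was marked in any member.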

How the results depend on the processing

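Over all genes DESeq2 called 57 higher and 55 lower in females, against 6 and 8 in edgeR, and the replicate number as a block gave 2 and 5 (the deviations of same-numbered libraries correlated at -0.31 to -0.09 across genes, and the numbers share nothing else in the labels). With the block 0 members were called, and the median SE of the members was 0.35 against 0.57 without it. Leaving out 1 library each gave 2 to 7 higher and 6 to 10 lower, with 3 higher without male replicate 1 and 2 without male replicate 3 or male replicate 4. Without the libraries numbered 4 of both sexes, an alternative added after seeing the data, 5 were lower. No member was called under any alternative, and 53 of 288 log2 fold changes of the 17 named members changed sign; the cause was not tested. Ifih1 changed sign to -0.0062 (no number 4). Ifit1 changed sign to 0.00059 (CPM filter). Ifit3 changed sign to -0.23 (limma-voom), -0.17 (replicate block), -0.32 (no number 4). Irf1 changed sign to -0.012 (DESeq2 size factors), -0.018 (upper-quartile size factors), -0.012 (DESeq2), -0.037 (limma-voom), -0.043 (replicate block), -0.14 (no number 4). Irf7 changed sign to -0.0079 (DESeq2 size factors), -0.030 (upper-quartile size factors), -0.0084 (DESeq2), -0.018 (muscle covariate). Irf9 changed sign to 0.021 (no number 4). Oasl1 changed sign to 0.15 (no number 4). Leaving out 1 library moved the fold change over -0.040 to 0.26 for Eif2ak2, -0.58 to 1.004 for Ifi44, -0.22 to 0.38 for Ifih1, -1.26 to 0.61 for Ifit1, -1.14 to 0.89 for Ifit3, -0.23 to 0.14 for Irf1, -0.57 to 0.79 for Irf7, -0.19 to 0.092 for Irf9, -1.38 to 0.50 for Isg15, -1.30 to 1.14 for Oas3, -0.79 to 0.80 for Oasl1, -1.12 to 0.26 for Oasl2, -1.14 to 0.51 for Rsad2, -0.067 to 0.33 for Stat2, -0.068 to 0.40 for Tap1 and -1.23 to 0.064 for Usp18. Ifi44 failed the filter of 2 CPM in at least 4 libraries. The median spread of the members was 0.74 to 1.02 with 1 library left out. The fewest counts of a member in a library were 11, for Oasl1 in female replicate 3.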

Other observations

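Genes outside the member list that followed the same order were collected after the values were seen. With both ratios of the libraries numbered 4 at least 2, a mean of at least 2 CPM and these libraries as the highest pair, 64 genes were found. Matched by gene symbol, 22 of these were members, 13 belonged to the other interferon and antigen lists and 29 to neither. Of 43 symbols listed as other interferon-induced genes, 40 were in the files, and no match was made by older gene names. The 29 are therefore not a count of genes outside the interferon response. Among the 29, chosen here by their known role and their values, were some genes of monocytes and macrophages. They differ from the macrophage marker list, of which 2 of 8 genes were higher in male replicate 4 than in the other males (ratio of sums 0.845). Over all tested genes that share was 24.7%. Ly6c2, a surface protein of inflammatory monocytes, stood at 1.29, 0.749, 1.31 and 12.9 CPM in male replicates 1 to 4 and at 2.53, 1.80, 0.441 and 7.13 CPM in female replicates 1 to 4. Siglec1, the sialic acid receptor of tissue macrophages, stood at 5.82, 6.90, 8.29 and 23.0 CPM in males and at 9.54, 5.54, 2.07 and 21.98 CPM in females. Both genes were lowest in female replicate 3 among females, as most members were. Whether Ly6c2 and Siglec1 followed the number of such cells or the interferon response itself was not tested. Chi3l3, a chitinase-like protein of macrophages, had ratios of 8.17 and 8.39 in male and female replicate 4, at low levels. It stood at 1.19, 0.428, 0.545 and 4.46 CPM in males and at 1.18, 0.878, 0.486 and 7.37 CPM in females. Its mean of 2.07 CPM passed the limit of 2 CPM only through the libraries numbered 4. High ratios there were the rule for this collection, so they are not a separate result.

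The same collection held adipocyte genes with another low end. Adipoq, the fat cell hormone adiponectin, stood at 7.96, 32.4, 17.9 and 42.2 CPM in males and at 19.4, 8.68, 30.1 and 41.7 CPM in females. Cfd (adipsin) stood at 27.3, 84.1, 50.7 and 201.9 CPM in males and at 60.2, 35.1, 82.0 and 156.4 CPM in females. In female replicate 3, where most members were lowest, both genes were above female replicates 1 and 2. These genes carry no test.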
